A study of Mus musculus with 48 samples.

Results

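Genes with a 24 h rhythm were sought in the tibialis anterior, a fast-twitch leg muscle, of mice that lacked FoxP1 in muscle fibers and carried a pancreatic tumor. Of the 48 RNA-seq libraries of the series, 12 came from these FoxP1SkmKO KPC mice, 2 mice at each of CT18, CT22, CT26, CT30, CT34, and CT38. Each gene was fitted with a 24 h sinusoid on its FPKM (fragments per kilobase of gene, scaled to library depth). This was done for every gene that averaged at least 1 FPKM over the 12 libraries, which kept 10010 of 56748 genes. FoxP1SkmKO mice were male FoxP1fl/fl mice with ACTA1-Cre, which is active in skeletal muscle fibers, so other cells of the muscle keep the gene. They were 39 to 55 weeks old according to the series record, and a passage of the study gives a younger age for the sequenced mice. KPC mice received murine pancreatic cancer cells into the pancreas, and control mice received 50 µl of phosphate-buffered saline. FoxP1SkmKO control mice, WT KPC mice, and WT control mice, with 12 libraries each at the same times, served for comparison. WT mice are described as FoxP1fl/fl without Cre in one record and as C57BL/6J in another. All mice had been entrained to a light/dark cycle and were held in constant darkness for 18 h before the first sampling. Each mouse gave 1 time, and the data cover 1 cycle. A 24 h rhythm can therefore not be told apart from a change that happens once.

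The muscle clock is a feedback loop of transcription. BMAL1 and CLOCK bind E-boxes and switch on the Period and Cryptochrome genes, whose products shut BMAL1 and CLOCK off again, and on the REV-ERB genes, whose products repress *Arntl*, the gene of BMAL1. The same activators drive DBP, TEF, and HLF, factors that bind D-boxes and carry the rhythm to output genes, and NFIL3 competes with them. In skeletal muscle this loop is known to time genes of glucose and lipid use and the myogenic factor *Myod1*.

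Library totals ran from 14480446 to 20222710 counts in the FoxP1SkmKO KPC group (median 16762730). *Foxp1*, the targeted gene, lay between 0.419 and 0.653 FPKM (median 0.531) in the 12 libraries and between 0.455 and 0.757 FPKM (median 0.636) in WT KPC mice. The groups overlapped, so the value summed over the whole gene did not separate the genotypes. It was under the filter and showed no 24 h fit (n = 12, p = 0.502). Summed skeletal muscle markers were 48920 to 61041 FPKM. The library CT18 replicate 2 stood apart through liver transcripts. The 22 liver markers summed to 378 FPKM in it and to 2.36 to 5.89 FPKM in the other 11 libraries, and all 22 were highest there. In CT30 replicate 2, 8 neutrophil markers summed to 21.5 FPKM, against 0.168 to 5.33 in the other 11. Among FoxP1SkmKO control mice, liver markers summed to 116 FPKM in CT22 replicate 1, the highest of that group. Counts without CT18 replicate 2 are given below for the main comparisons and for several gene lists.

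The fit passed p under 0.01, the threshold of the study, for 560 genes (5.59% of those tested, where 100 would be expected by chance at that threshold). With Benjamini-Hochberg adjustment over all 10010 genes, 69 passed 0.05 (0.689%). Without the library with liver transcripts, 519 genes had p under 0.01 and 56 had an adjusted p under 0.05. Leaving out each of the other 11 libraries in turn gave 453 to 537 and 34 to 60. The adjusted count was 34 to 44 without either CT22 mouse, CT26 replicate 2, either CT34 mouse, or either CT38 mouse. *Timp3* lay just inside the threshold (n = 12, p = 0.00996) and *Pogk* just outside. The median amplitude, the distance from the mean to the peak of the fit, was 17.3% of the mean among the 560 genes and 7.44% over all genes tested. It was at least 25% in 160 of the 560 genes and under 10% in 74.

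Peaks fell at all times of the cycle. Of the 560 genes, 107 peaked within 2 h of CT18, 119 of CT22, 64 of CT26, 86 of CT30, 107 of CT34, and 77 of CT38. Counted by half-cycle, 303 peaks (3.03% of all genes tested) lay in the subjective night and 257 (2.57%) in the subjective day, CT24 to CT36. Among the 69 genes with an adjusted p under 0.05, 41 peaked by night and 28 by day. The fewest peaks came around CT26 in both counts, and also without the library with liver transcripts (56 of 519).

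**Figure D1:**
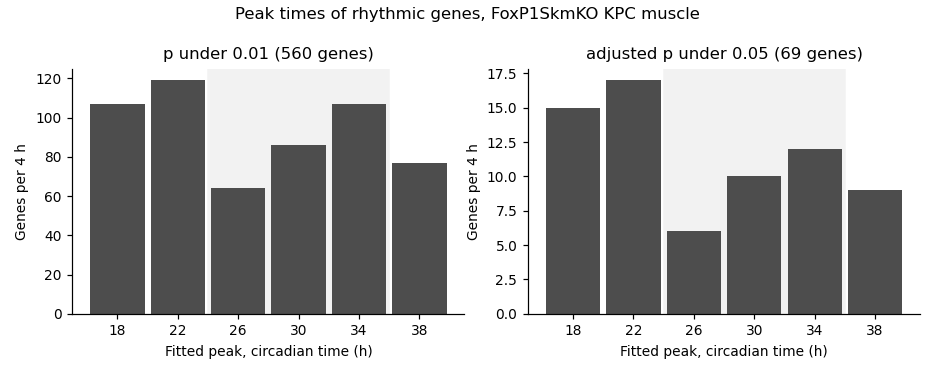
Number of genes (vertical axis) whose fitted peak fell within 2 h of each sampled circadian time (horizontal axis, h) in FoxP1SkmKO KPC muscle, for the 560 genes with p under 0.01 (left) and the 69 with an adjusted p under 0.05 (right); the shaded band is the subjective day. Around CT26 there are 64 and 6 genes, the lowest bar in each panel.

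The clock itself was rhythmic. Of 18 clock genes tested, 16 had p under 0.01 and 7 an adjusted p under 0.05, with *Npas2* left out at a mean of 0.189 FPKM. *Bhlhe41*, a repressor related to *Bhlhe40*, missed (n = 12, p = 0.0348). Without the library with liver transcripts the count was 15, as *Bhlhe40* moved to p = 0.0111 (n = 11). It also missed the threshold without CT30 replicate 1 (n = 11, p = 0.0103) and CT30 replicate 2 (p = 0.0107), and *Rora* did so without CT22 replicate 1 (p = 0.0151), CT22 replicate 2 (p = 0.0129), or CT34 replicate 2 (p = 0.0145). The other 14 kept p under 0.01 whichever library was left out.

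Among the activators, *Arntl* (chromosome 7, 112806672 to 112913333, mm39) ranged from 0.701 to 5.07 FPKM over the 12 libraries (median 2.07). Both CT22 mice were highest (4.83 and 5.07) and both CT30 and both CT34 mice were lowest (0.701 to 1.13). The fit peaked at CT20.9 ± 0.348 h (SE, n = 12) with an amplitude of 1.97 ± 0.18 FPKM (adjusted p = 0.00621). *Clock*, its partner, was flatter, at 1.37 to 2.57 FPKM with a peak at CT23.2 and an amplitude 25.8% of the mean (adjusted p = 0.0715).

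The REV-ERB gene *Nr1d1* peaked later than *Arntl*. It lay between 6.96 and 60.9 FPKM (median 28.1), with both CT38 mice lowest (7.17 and 6.96) and both CT26 mice and 1 CT30 mouse highest (53.5 to 60.9), and its peak was at CT27.0 ± 0.359 h (adjusted p = 0.00621). Its relative *Nr1d2* followed at CT32.1, between 13.5 and 27.2 FPKM (adjusted p = 0.0253). The BMAL1 repressor *Ciart* had the largest relative amplitude of the genes called, 119% of its mean, with 0.294 to 0.731 FPKM at CT18, CT22, and CT38 and 5.33 and 5.29 FPKM in the CT30 mice (n = 12, p = 0.000979). *Ciart* was the clock gene with the lowest p for an added 12 h term (n = 12, p = 0.00637).

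The Period and Cryptochrome genes peaked from the late day into the night. *Per2* lay between 0.748 and 6.80 FPKM (median 2.76), lowest in both CT22 mice and highest in both CT34 mice (6.80 and 5.98), with a peak at CT34.3 ± 0.388 h (adjusted p = 0.00781). *Per3* and *Per1* came before it at CT32.3 and CT32.8. *Cry2* peaked at CT32.1 (5.37 to 10.5 FPKM, adjusted p = 0.0260), whereas *Cry1*, the late member of the loop, peaked at CT17.7 (4.00 to 7.56 FPKM, adjusted p = 0.0526).

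The output factors were led by *Dbp*, which ran from 3.69 to 46.0 FPKM. Its 4 libraries of CT30 and CT34 held 33.0 to 46.0 FPKM and its 4 libraries of CT18 and CT22 held 3.69 to 7.23. The amplitude was 21.1 ± 1.96 FPKM, 96.3% of the mean, and the peak CT31.2 ± 0.353 h (adjusted p = 0.00621). *Tef* moved less for its level, between 34.9 and 59.6 FPKM with a peak at CT32.4 (adjusted p = 0.00621), and *Hlf* peaked at CT33.5. *Nfil3*, their competitor, peaked at CT17.9, with 21.0 to 27.5 FPKM in the CT18, CT22, and CT38 mice and 7.08 to 15.1 in the others (adjusted p = 0.0515).

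**Figure D2:**
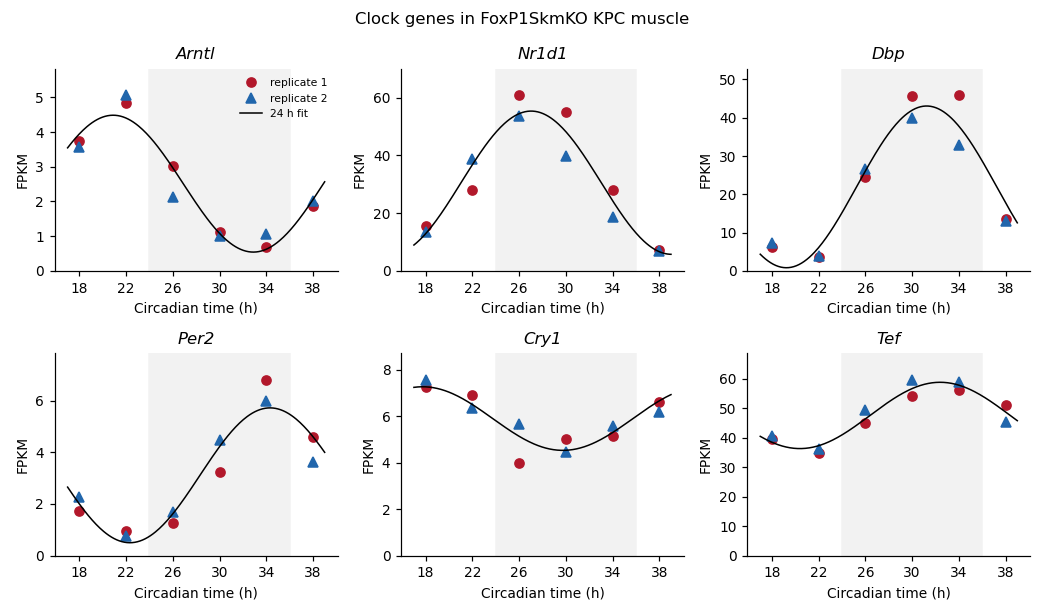
FPKM (vertical axes, from 0) of 6 clock genes against circadian time (horizontal axes, h) in FoxP1SkmKO KPC muscle; each point is 1 mouse (circles replicate 1, triangles replicate 2), the line is the 24 h fit, and the shaded band is the subjective day. *Arntl* is highest at CT22 (4.83 and 5.07 FPKM) and *Dbp* lowest there (3.69 and 3.98 FPKM).

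Promoters were searched for the elements through which the loop is known to act. Windows from 250 bases before to 50 bases after the start of each gene's canonical transcript (GENCODE vM39, GRCm39, the same assembly as mm39) were searched on both strands for the E-box CACGTG, the D-box TTATGTAA or TTACGTAA, and the ROR and REV-ERB element TAGGTCA or TGGGTCA. The E-box was present in 6 of 18 clock genes (33.3%), in 13 of the 69 genes with an adjusted p under 0.05 (18.8%), and in 1020 of 9957 windows in all (10.2%). D-boxes were present in 2 of the 18 clock genes and in 0.813% of all windows. The third element was found in 1 clock gene and in 5.44% of all windows. The other 9 clock genes, *Arntl*, *Clock*, and *Nr1d1* among them, held none of the 3 in this window. By peak time, the share of the 560 genes with an E-box was 7.81% to 15.1% in the 6 bins. The windows below are examples chosen after the peaks were seen, from clock genes and from genes with an adjusted p under 0.05 that peaked by day or by night. They are written along the gene's own strand, with the element in capitals.
Per1 (chr11:68989234-68989263, + strand, peak CT32.8): accccttaacgaCACGTGggccctcaattg
Ciart (chr3:95789639-95789668, − strand, peak CT30.6): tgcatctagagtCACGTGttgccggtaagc
Tef (chr15:81695465-81695494, + strand, peak CT32.4): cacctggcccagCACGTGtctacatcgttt
Usp2 (chr9:43978148-43978177, + strand, peak CT33.5): gtgctttttctcCACGTGgttctctgtata
Coq10b (chr1:55091839-55091868, + strand, peak CT31.2): ggcggcactggaCACGTGcgtcagcctagc
Cry1 (chr10:85020961-85020990, − strand, peak CT17.7): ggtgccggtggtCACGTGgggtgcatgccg
Fkbp5 (chr17:28705275-28705304, − strand, peak CT16.3): gcaagggccagaCACGTGggcagcggtgaa
Ppp1r3c (chr19:36714091-36714120, − strand, peak CT17.4): gagggaccggttCACGTGatctggctttga
Per2 (chr1:91387153-91387182, − strand, peak CT34.3): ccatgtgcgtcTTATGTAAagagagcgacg
Per3 (chr4:151129262-151129291, − strand, peak CT32.3): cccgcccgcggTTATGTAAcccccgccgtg
Dbp (chr7:45354312-45354341, + strand, peak CT31.2): ttggccaaataTAGGTCAgtgtcccgcctt
The first 8 carry an E-box, *Per2* and *Per3* a D-box, and *Dbp* the ROR and REV-ERB element. E-boxes were found at all peak times, and of the 13 genes with an adjusted p under 0.05 that hold one, 6 peaked by day and 7 by night. A match of letters is a description of the window and not a binding site.

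Outside the clock, the lowest p values belonged to *Slc16a9*, *Dyrk2*, *Grb2*, *Miga2*, *Asb2*, *Leo1*, *Ypel2*, *Wdr6*, *Zfp142*, *Lrrc30*, *Ahdc1*, and *Pik3r1*, all with an adjusted p of 0.00621 to 0.00715. Of these 12, *Grb2* (CT30.6) and *Leo1* (CT24.8) peaked in the subjective day and the other 10 in the subjective night. *Slc16a9* (chromosome 10, 70080930 to 70121798), a transporter of the monocarboxylate family, ranged from 0.629 to 3.50 FPKM (median 1.84). The 4 mice of CT18 and CT22 held 3.23 to 3.50 FPKM and the 4 mice of CT30 and CT34 0.629 to 1.18, without overlap, for a peak at CT19.2 ± 0.275 h and an amplitude of 1.49 ± 0.107 FPKM (adjusted p = 0.00621). In FoxP1SkmKO control, WT KPC, and WT control mice the amplitudes were 1.04, 1.10, and 1.10 FPKM and the peaks CT20.6, CT20.5, and CT20.6. The difference in rhythm had p = 0.0003 against FoxP1SkmKO control and 0.0219 against WT KPC mice (n = 24), and neither passed adjustment over all genes.

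Rhythmic genes outside the clock included abundant muscle transcripts. *Asb2* (chromosome 12, 103287401 to 103322260), which encodes a subunit of a ubiquitin ligase known to limit muscle mass, ran from 217 to 410 FPKM (median 327). All 4 mice of CT18 and CT22 were at 397 or above and all 4 of CT30 and CT34 at 260 or below, with an amplitude of 91.2 ± 7.91 FPKM and a peak at CT20.3 (adjusted p = 0.00621). *Mylk4*, a kinase of the myosin light chain kinase family, ran from 202 to 437 FPKM (median 271), with 202 to 240 in the mice of CT22 and CT26 and 362 to 437 in those of CT34 and CT38, and had the largest amplitude of the 69 genes, 93.2 ± 12.5 FPKM (peak CT36.3, adjusted p = 0.0315). *Ppp1r3c*, which targets protein phosphatase to glycogen, ranged from 54.1 to 203 FPKM (median 152), with the CT26 and CT30 mice at 78.3 or below and a peak at CT17.4 (adjusted p = 0.0386). Its mice at CT34 lay apart, at 73.4 and 149 FPKM. *Pnpla3*, a lipid droplet hydrolase, was less abundant, at 7.44 to 9.53 FPKM in the 6 mice of CT18, CT22, and CT38 and 1.57 to 3.09 in the other 6 (adjusted p = 0.00781).

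Of 19 tested genes listed under clock kinases and turnover, 3 were called (15.8%, against 5.59% of all genes), and 4 without the library with liver transcripts. Of the 3, *Usp2*, a deubiquitinase of clock proteins, lay between 27.0 and 65.0 FPKM with both CT34 mice highest and a peak at CT33.5 (adjusted p = 0.0221). *Nampt*, the enzyme of NAD salvage, peaked at CT36.0 (n = 12, p = 0.000924, adjusted p = 0.0734). *Wee1*, a kinase that holds back mitosis, was the only call among 18 genes listed under cell cycle and p53 outputs (5.56%). Its peak was at CT37.1 (adjusted p = 0.0241). *Coq10b*, a binding protein of coenzyme Q that was chosen after its values were seen, rose from 1.06 and 1.11 FPKM at CT18 to 3.74 and 3.99 at CT30 (adjusted p = 0.00788).

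**Figure D3:**
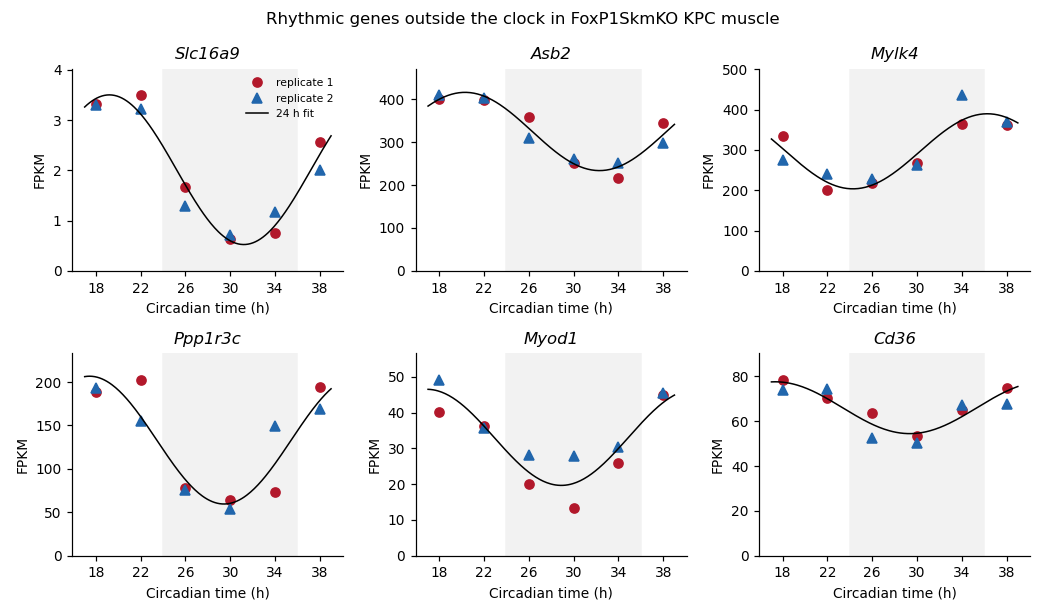
FPKM (vertical axes, from 0) of 6 genes outside the clock against circadian time (horizontal axes, h) in FoxP1SkmKO KPC muscle; each point is 1 mouse (circles replicate 1, triangles replicate 2), the line is the 24 h fit, and the shaded band is the subjective day. *Slc16a9*, *Asb2*, *Ppp1r3c*, *Myod1*, and *Cd36* are high in the subjective night and low near CT30, and *Mylk4* is high at CT34 and CT38 (362 to 437 FPKM).

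The functions of the rhythmic genes were read from gene lists, each set against the 5.59% of all genes with p under 0.01. Counts for most lists were small, and no list was tested. Myogenic regulators held 5 of 19 tested (26.3%), all with a peak in the subjective night, CT16.9 to CT23.5. *Myod1*, the myogenic master factor, lay between 13.2 and 49.1 FPKM (median 33.0). It was highest at CT18 and CT38 (40.3 to 49.1 FPKM) and lowest from CT26 to CT34 (13.2 to 30.3), with a peak at CT16.9 ± 0.568 h (adjusted p = 0.0490). *Vgll2* (n = 12, p = 0.000391) and *Tead4* (p = 0.000806), a cofactor and a factor of the TEAD family, peaked at CT21.8 and CT20.7. *Eya1*, which was named after its values were seen, had p = 0.00856 (n = 12) and lost the threshold without 9 of the 12 libraries, and the list count was 3 without the library with liver transcripts.

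Of 39 tested genes of fatty acid uptake and oxidation, 6 were called (15.4%), *Cd36*, *Pltp*, *Acadl*, *Lpl*, *Ppara*, and *Decr1* (the last 3 named after their values were seen), and all 6 peaked in the subjective night (CT17.3 to CT22.9, and CT36.5 to CT39.7). *Cd36* (chromosome 5, 17986688 to 18093799), the fatty acid carrier of the fiber membrane, ranged from 50.2 to 78.4 FPKM (median 67.4), with the CT26 and CT30 mice at 50.2 to 63.6 and all others at 64.9 or above (peak CT17.3 ± 0.616 h, n = 12, p = 0.000562, adjusted p = 0.0557). Of these 6 genes, *Cd36* alone kept p under 0.01 whichever library was left out. The highest p was 0.0126 for *Pltp* (without CT34 replicate 2), 0.0164 for *Acadl* (without CT38 replicate 1), 0.0168 for *Lpl* (without CT26 replicate 2), 0.0328 for *Ppara* (without CT38 replicate 2), and 0.0310 for *Decr1* (without CT26 replicate 2). Over all 39 members, called or not, 9 fitted peaks lay in the subjective day (23.1%), where 50.7% of all genes tested did. Only 13 of the 39 fits had an unadjusted p under 0.05. The share of day peaks differed between lists, at 24% for lipid and sterol synthesis and 67.7% for glycolysis and glucose uptake. Genes of a list come from the same mice, so their peaks are not independent counts and these shares are a description.

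Glycolysis and glucose uptake held 6 of 31 (19.4%), with peaks from CT28.3 to CT37.0. *Hk2*, the hexokinase that traps glucose in muscle, lay between 72.3 and 105 FPKM, lowest in both CT26 mice and highest in both CT34 mice (peak CT35.5, n = 12, p = 0.00112). *Pdha1*, a subunit of pyruvate dehydrogenase, moved by 6.76% of its mean (peak CT33.1, n = 12, p = 0.00161). *Pfkfb3*, which makes the activator of phosphofructokinase and was named after its values were seen, rose from 7.55 to 11.6 FPKM in 6 mice to 77.8 and 82.5 in the CT30 mice (n = 12, p = 0.00392, and 0.0125 without CT30 replicate 1). The symbol *Aldoa* is carried by 2 tested genes. The main one (ENSMUSG00000030695) averaged 5362 FPKM and was flat (n = 12, p = 0.397), and a neighboring gene model (ENSMUSG00000114515) averaged 122 FPKM and passed (p = 0.00221), where the counting could have split reads.

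Amino acid and polyamine genes held 7 of 31 (22.6%), of which 5 peaked by night. The transporters *Slc7a8* (n = 12, p = 0.00101), *Slc38a2* (p = 0.00208), and *Slc38a3* (p = 0.00278) peaked at CT37.4, CT17.8, and CT17.8. *Slc38a3* missed the threshold without CT18 replicate 1 (n = 11, p = 0.0119), CT30 replicate 1 (p = 0.0118), or CT30 replicate 2 (p = 0.0117). *Pik3r1*, the regulatory subunit of PI3-kinase, stood out among 35 insulin and mTOR genes, of which 3 were called (8.57%). It lay between 2.21 and 6.88 FPKM (median 4.21), with all CT26 and CT30 mice at 2.51 or below and a peak at CT39.8 (adjusted p = 0.00715).

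Of 22 genes known to respond to glucocorticoids, 4 were called (18.2%). *Fkbp5*, a cochaperone of their receptor, ran from 2.06 to 7.72 FPKM (median 4.86) with 5.76 to 7.72 at CT18 and CT38 and 6.03 in CT34 replicate 2, and had a peak at CT16.3 (adjusted p = 0.0339). *Arrdc3* peaked at CT38.9 (n = 12, p = 0.000477), and *Per1* belongs to this list too. The fourth, *Tsc22d3* (n = 12, p = 0.00946, named after its values were seen), lost the threshold without 9 of the 12 libraries (p up to 0.0328, without CT26 replicate 1).

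The nuclear genes of the respiratory chain held 6 of 78 called (7.69%), close to the share of all genes, and all 6 peaked between CT30.9 and CT33.4. Of all 78, 57 fitted peaks lay in the subjective day (73.1%, against 50.7% of all genes), though only 17 of the 78 fits had an unadjusted p under 0.05. The share differed between lists, at 80% for the proteasome, 67.6% for mitochondrial ribosomal proteins, and 38.5% for mitochondrially encoded genes. Members of a list were measured in the same mice, so their peaks are not independent counts and these shares are a description. *Ndufb8*, a complex I subunit, lay between 34.1 and 62.6 FPKM with the CT18 and CT38 mice split, at 34.1 and 46.0 and at 46.3 and 58.2 (n = 12, p = 0.00456, and 0.0150 without CT34 replicate 2). *Uqcr11* and *Ndufb6* split the same way, and the list summed to 10750 and 11350 FPKM in the CT18 mice and to 10820 and 12730 in the CT38 mice. Each of the 6, *Sdha*, *Atp5b*, and *Ndufa12* included, lost the threshold without at least 1 library, and without the library with liver transcripts 4 of 78 were called.

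**Figure D4:**
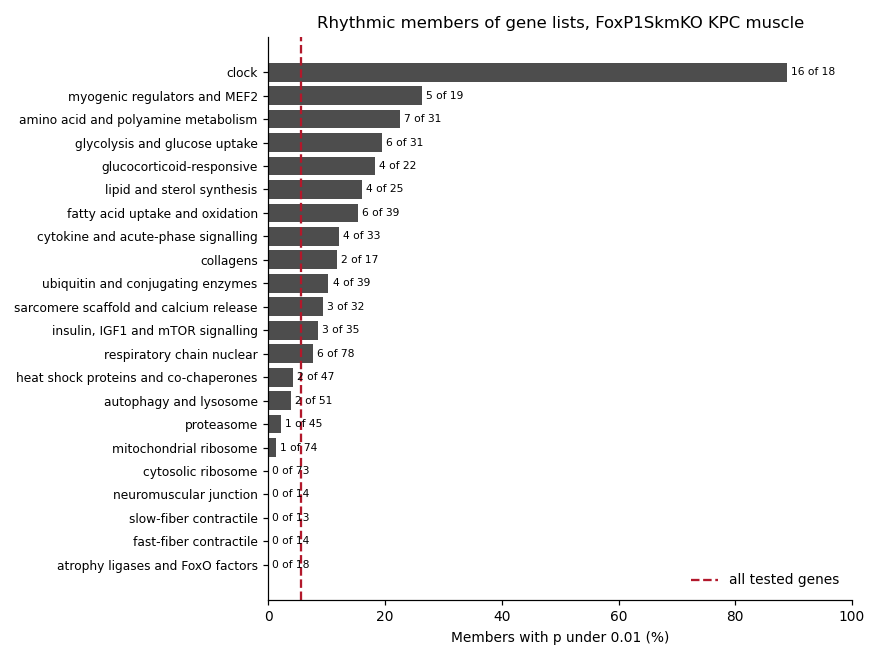
Share of tested members with p under 0.01 for the 24 h fit (horizontal axis, %) in 22 gene lists (vertical axis) in FoxP1SkmKO KPC muscle; numbers give members called of members tested, and the dashed line is the 5.59% of all genes. The clock list stands at 16 of 18, and the 5 lists at the bottom hold no called member.

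In lists tied to muscle wasting, the shares called lay on both sides of the 5.59% of all genes. None of 18 tested atrophy ligases and FoxO factors had p under 0.01, with 3 under an unadjusted 0.05. Without the library with liver transcripts, 1 of the 18 was called. Of 45 proteasome genes 1 was called (2.22%), *Psmc1*, an ATPase of the regulatory particle (43.5 to 57.9 FPKM, n = 12, p = 0.00886), which lost the threshold without 9 of the 12 libraries, the liver-bearing one included (p = 0.0316). Of 51 autophagy and lysosome genes 2 were called (3.92%), *Tfe3* (n = 12, p = 0.000731) and *Rb1cc1* (p = 0.00701), and the latter was lost without 9 libraries (p up to 0.0172, without CT30 replicate 2). Without the library with liver transcripts, 3 of the 51 were called. Ubiquitin and conjugating enzyme genes held 4 of 39 (10.3%), and 2 of 39 without the library with liver transcripts. The 47 heat shock genes held 2 (4.26%), and *Dnajb4*, a cochaperone of HSP70, had the lower p (4.90 to 8.63 FPKM, peak CT39.3, adjusted p = 0.0251).

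Fast- and slow-fiber contractile genes were not called. No gene of 14 fast-fiber and 13 slow-fiber contractile genes, 14 neuromuscular junction genes, 73 cytosolic ribosomal proteins, or 13 mitochondrially encoded genes had p under 0.01, and 0, 1, 1, 4, and 3 of them had an unadjusted p under 0.05. Over all genes the shares were 5.59% and 16.2%, so lists of 13 or 14 genes would hold few calls or none. Without the library with liver transcripts, 2 of the 73 ribosomal proteins were called. Of 32 sarcomere scaffold and calcium release genes, 3 were called (9.38%), and 4 without the library with liver transcripts. *Ankrd23*, a titin-associated ankyrin repeat protein, lay between 57.7 and 85.8 FPKM and was highest in the CT26 mice (adjusted p = 0.0253), and *Tcap*, the titin cap, peaked at CT33.8 with an amplitude 16.4% of its mean (n = 12, p = 0.00185).

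In short lists of genes of other cells of the muscle, few were called. Of 17 collagens 2 were called (11.8%, against 5.59% of all genes). *Col4a2* (n = 12, p = 0.00215) and *Col5a3* (p = 0.00468) peaked at CT23.8 and CT23.6. Both were highest in the library CT22 replicate 1 (27.4 and 7.24 FPKM). In that library 8 fibroblast markers summed to 210 FPKM, against 65.8 to 121 in the other 11 libraries. Without CT26 replicate 2 *Col5a3* had p = 0.0136 (n = 11). None of 7 tested fibroblast markers or 8 endothelial markers was called. At the 5.59% of all genes, lists of this length hold few calls or none. Liver markers are not of the muscle, and most of their level came from CT18 replicate 2. There the 22 markers summed to 378 FPKM, against at most 5.89 in the other 11 libraries. With 1 library carrying the signal, the fits of the 11 liver markers tested could not decide on a rhythm, and none was called. Of the 8 endothelial markers, 4 had an unadjusted p under 0.05, where 16.2% of all genes did. Without the library with liver transcripts, 1 of the 8 was called. Of 6 macrophage markers *Csf1r* was (n = 12, p = 0.00824), and it was lost without 9 of the 12 libraries, up to p = 0.0271 without CT22 replicate 1. The part that cell composition played was not tested, and in bulk tissue fewer cells of a type and less RNA per cell cannot be told apart.

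The rhythms were then read in the other 3 conditions, whose mice had not been used for the calls. Of the 69 genes with an adjusted p under 0.05, 61 had p under 0.01 in FoxP1SkmKO control mice, 52 in WT KPC mice, and 56 in WT control mice, where 9.20%, 8.76%, and 10.5% of all 10010 genes did (3.58%, 3.55%, and 4.36% with an adjusted p under 0.05). The fitted peak lay within 3 h of that in FoxP1SkmKO KPC mice for 65, 67, and 65 of the 69. Over all genes tested, 43%, 48.1%, and 43.8% of fitted peaks did. Of the 560 genes, 214 were called in FoxP1SkmKO control mice (38.2% of the 560 and 23.2% of the 921 called there), 198 in WT KPC mice (35.4%, and 22.6% of 877), and 226 in WT control mice (40.4%, and 21.4% of 1055). All 4 conditions called 107 genes. The FoxP1SkmKO KPC group had the fewest calls over the same genes, and its median coefficient of variation between the mice of a time was the highest, 7.30% against 6.45%, 6.87%, and 6.53%. The difference in counts between conditions was not tested.

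Clock genes peaked slightly earlier in FoxP1SkmKO KPC mice. Set against WT control mice, the fitted peak was earlier for 18 of 18 genes (median difference -1.497 h, from -3.80 to -0.819 h). Against FoxP1SkmKO control mice it was earlier for 17 of 18 (median -0.918 h, from -8.58 to 1.95 h), and against WT KPC mice for 15 of 18 (median -0.603 h, from -2.14 to 6.11 h). *Arntl* peaked at CT20.9 ± 0.348 h in FoxP1SkmKO KPC, CT21.7 ± 0.166 h in FoxP1SkmKO control, CT22.2 ± 0.377 h in WT KPC, and CT22.5 ± 0.292 h in WT control mice. For *Tef* the peaks were CT32.4, CT33.9, CT32.8, and CT34.2, and for *Cry2* CT32.1, CT33.4, CT34.2, and CT34.6.

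The test of a difference in rhythm, gene by gene, passed an unadjusted 0.05 for 1 of the 18 against FoxP1SkmKO control mice, *Tef* (n = 24, p = 0.00447), and for 2 against WT KPC mice, *Cry2* (p = 0.0104) and *Arntl* (p = 0.0445), and for none after adjustment over all genes. The difference from WT control mice was not tested. The 18 genes come from the same mice and are parts of one loop, so they are not 18 independent results, and the 3 comparisons share the FoxP1SkmKO KPC mice. The median ratio of amplitudes was 1.06, 1.07, and 1.01. Among genes called in both conditions of a pair the median peak difference was -0.491 h over 214 genes, -0.585 h over 198, and -1.17 h over 226, in the order FoxP1SkmKO control, WT KPC, and WT control.

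**Figure D5:**
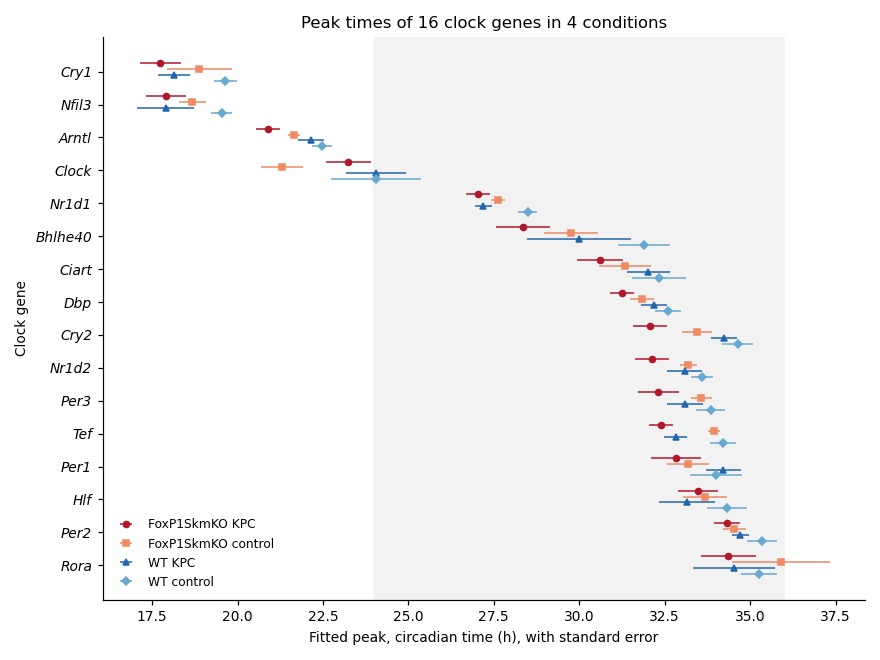
Fitted peak (horizontal axis, circadian time in h, with its standard error from the fit of 12 libraries) of the 16 clock genes with p under 0.01 (vertical axis) in the 4 conditions, each peak drawn at the turn of the cycle nearest to that in FoxP1SkmKO KPC muscle; the shaded band is the subjective day. The FoxP1SkmKO KPC peak lies left of the WT control peak for all 16 genes.

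Differences in rhythm were tested over all genes. Against FoxP1SkmKO control mice, 816 genes had an unadjusted p under 0.05 (8.15%), 199 under 0.01 (1.99%), and 0 an adjusted p under 0.05, in the F test on FPKM as in limma. Leaving out CT26 replicate 2 or CT30 replicate 2 lowered the 199 to 129 and 130. Without CT18 replicate 2, the FoxP1SkmKO KPC library with liver transcripts, 173 genes had p under 0.01 and 1 an adjusted p under 0.05. Without the FoxP1SkmKO control library with liver transcripts, a setting added after the data were seen, 181 genes had p under 0.01 and 0 an adjusted p under 0.05 (790 with an unadjusted p under 0.05). The lowest p belonged to the second *Aldoa* gene model (ENSMUSG00000114515), at 103 to 152 FPKM (median 118) in FoxP1SkmKO KPC and 99.3 to 132 FPKM (median 120) in FoxP1SkmKO control mice, where the fitted peaks were CT28.3 and CT19.7 (adjusted p = 0.109). *Crk*, an adaptor of tyrosine kinase signaling, peaked at CT38.3 and CT31.6 (n = 24, p = 0.000121), and *Selenbp1* at CT17.8 and CT27.9 (p = 0.000187).

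Against WT KPC mice, which also carried the tumor, 474 genes had an unadjusted p under 0.05 (4.74%), 76 under 0.01 (0.759%), and again 0 an adjusted p under 0.05, with 0 in limma. Both shares lay below the 5% and 1% that the thresholds give with no difference, so the genes below only name the lowest p values. Without CT30 replicate 1 the 76 became 136, and without CT18 replicate 2 it became 83. The lowest p belonged to *Nsun2*, an RNA methyltransferase, which lay between 6.64 and 7.53 FPKM (median 6.89) in FoxP1SkmKO KPC and between 6.40 and 7.54 FPKM (median 6.89) in WT KPC mice, with peaks at CT17.1 and CT32.8 (adjusted p = 0.146). *Lingo3* peaked at CT21.4 with an amplitude of 0.808 FPKM, and at CT23.9 with 2.06 FPKM in WT KPC mice (n = 24, p = 5.36e-05). *Mcoln1*, a lysosomal calcium channel, peaked at CT26.2 and CT38.1 (n = 24, p = 0.000142). The ranges of the libraries overlapped between the conditions for all 3 genes.

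Passing in 1 condition alone does not show a difference. Of the 560 genes, 132 had p over 0.05 in all 3 other conditions, and the difference in rhythm had an unadjusted p under 0.05 for 37 of them against FoxP1SkmKO control mice, for 29 against WT KPC mice, and for 11 against both. Over all genes these shares were 8.15% and 4.74%, and the 132 were chosen for lacking a rhythm elsewhere, so these counts are a description and no support for a difference. *Cd36* was 1 of the 11 (n = 24, p = 0.000292 and 0.0405). Its amplitude was 11.6 ± 1.86 FPKM in FoxP1SkmKO KPC mice, against 4.78 ± 2.45 in FoxP1SkmKO control, 2.91 ± 2.89 in WT KPC, and 0.828 ± 3.02 in WT control mice, at medians of 67.4, 66.9, 67.4, and 69.2 FPKM. *Grb2*, an adaptor of growth factor receptors, and *Samd4*, an RNA-binding repressor, were the 2 of the 132 with an adjusted p under 0.05. For *Grb2* the unadjusted p of the difference was 0.00277 against FoxP1SkmKO control and 0.230 against WT KPC mice (n = 24), and for *Samd4* 0.000828 and 0.327. None of these differences passed adjustment. *Samd4* was named after its values were seen.

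In the other direction, 70 genes had an adjusted p under 0.05 in all 3 other conditions. Of these, 48 had p under 0.01 in FoxP1SkmKO KPC mice and 3 had p over 0.05, *Klhl8* (n = 12, p = 0.0515), *Slc9a2* (p = 0.0686), and *Clip1* (p = 0.0803), which were named after their values were seen. *Klhl8* had an amplitude of 0.729 FPKM against 1.84, 1.60, and 2.00 FPKM in FoxP1SkmKO control, WT KPC, and WT control mice, and neither difference in rhythm passed adjustment over all genes (adjusted p = 0.562 and 0.999). It was chosen for this contrast, so the values are a description.

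A 12 h term added to the 24 h fit had p under 0.01 for 107 genes (1.07%), under 0.05 for 541 (5.40%), and an adjusted p under 0.05 for 0, and for 0 with limma. Without CT38 replicate 2 the 107 became 187, and without CT18 replicate 2 it became 149. The lowest p values belonged to *Gpx4-ps2* (n = 12, p = 1.61e-05), *Unc119b* (p = 5.28e-05), and *Gkap1* (p = 6.51e-05). *Gpx4-ps2* is a pseudogene that could share reads with *Gpx4*, which was not tested, so its value is uncertain. *Unc119b* was 5.80 and 6.19 FPKM in the CT26 mice and 3.97 and 4.18 in the CT34 mice.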

How the data were processed

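RNA of the tibialis anterior was poly-A selected and sequenced in paired ends. The authors aligned reads to mm39 and deposited read counts per gene and FPKM (fragments per kilobase of gene, scaled to library depth). STAR is named in the methods and HISAT2 2.0.5 in the submitters' processing notes, together with DESeq2 1.20.0, and counting was by HTSeq. Whether counting used strand is not given in the sources used here, so overlapping genes may share reads. The deposited counts stand in tables that also hold the authors' fold changes and p-values for KPC against control mice at each time, and only the count columns of those tables were used.

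From the deposited FPKM, a 24 h sinusoid was fitted by least squares to each gene with a mean of at least 1 FPKM and tested with an F test (2 and 9 degrees of freedom). Differences in rhythm were tested by 2 group-by-sinusoid terms (18 residual degrees of freedom) and a 12 h component by 2 added terms (7). The depth of 14480446 to 20222710 counts per library was used for the alternatives, which were limma 3.58.1, edgeR 4.0.16, and DESeq2 1.42.0 (R 4.3.3), other scales and filters, a replicate block, and each library left out in turn. The fits ran in Python 3.11.15 with numpy 2.4.6 and scipy 1.17.1. The fits were run on simulated data, with independent normal errors of each gene's own residual spread. The F test assumes such errors, so the share of flat genes called had to lie near the threshold. It does not check the test on the real libraries. In the simulated data, p under 0.01 was reached by 40% of rhythms with a relative amplitude (amplitude over mean) of 0.15. The share was 87% at a relative amplitude of 0.4 and 0.938% for flat genes. A gene that was not called may therefore still have a rhythm of small amplitude.

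Named genes were the clock genes, the 12 lowest p values outside them, the 6 largest relative and 4 largest absolute amplitudes among adjusted calls, up to 3 called genes per list, and the 3 lowest p values of each other test. Others are said to be named after their values were seen. The members and gene lists were chosen with earlier results of these data known. Labels give 2 mice per time, and nothing more on their source. Replicate numbers did not pair the mice (correlation of deviations over 0.1 for 2 of 15 pairs of times). Some genes of the lists count in the totals and are not reported here by name.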

Additional observations from a re-analysis of the deposited data

How the results depend on the processing

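The count of genes with a 24 h rhythm at p under 0.01 (560) was 276 with a mean of at least 5 FPKM, where fewer genes were tested, 958 with edgeR (14597 genes tested) and 1142 with DESeq2 (25498 genes tested) on counts, and 69 with adjustment. It was 453 to 537 without 1 library. The 69 genes with an adjusted p under 0.05 became 33 with no filter on FPKM, 202 with limma, 316 with edgeR, 671 with DESeq2, and 34 to 60 without 1 library. This count fell by over 1.5 times without CT22 replicate 1 (38), CT22 replicate 2 (34), CT26 replicate 2 (44), CT34 replicate 1 (40), CT34 replicate 2 (44), CT38 replicate 1 (37), or CT38 replicate 2 (43). Of the 560, 540 were shared with log2(FPKM + 1), 441 with edgeR, and 453 with DESeq2. The difference from FoxP1SkmKO control mice (199) was 338 with no filter, 104 from 5 FPKM on, and 129 to 261 without 1 library. That from WT KPC mice (76) was 195, 39, and 64 to 136. The 12 h term (107) was 244, 50, and 79 to 187. The cause was not tested, other than the number of genes tested under each filter. Differences with an adjusted p under 0.05 numbered up to 5 against FoxP1SkmKO control mice (without CT18 replicate 1) and 1 against WT KPC mice (without CT38 replicate 2), and for the 12 h term up to 3 (no filter). With a replicate block, 522 genes had p under 0.01 and 50 an adjusted p under 0.05, and the numbers did not pair the mice.

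Of 101 named genes with p under 0.01, 63 kept it whichever library was left out and 82 under every other setting run. Of 2474 values of named genes under the alternatives, 2199 stayed on their side of the 0.01 threshold, 263 lost it, and 12 gained it. A reversal, a large move of the fitted peak, was seen in 0. It could show only in 24 h fits of genes with p under 0.01 where the setting gave a peak. With 2 mice per time and 1 cycle, small amplitudes are within the spread between mice.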
